A study of Mus musculus with 8 samples.

Results

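The testis-specific serine kinases and the kinase substrate Tsks were followed in the testes of Miwi-null and wild-type (WT) mice. The 7 genes, Tssk1, Tssk2, Tssk3, Tssk4, Tssk5, Tssk6 and Tsks, were chosen by symbol from the 21949 genes of the deposited tables, and all 7 were found. Miwi-null mice lack MIWI, a PIWI protein of the male germ line whose gene is Piwil1, and all mice were C57BL/6 at postnatal day 24. The 4 groups were Miwi-null total RNA, WT total RNA, Miwi-null ribosome-protected fragments (RPF, or footprints, left when nuclease digests mRNA outside the ribosomes) and WT RPF, with 2 libraries each from whole testes. The labels give neither the allele behind the null genotype nor the animals behind each library, so each p-value rests on the spread of these libraries alone, which may be technical.

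Members of the TSSK family are serine/threonine kinases made almost wholly in the haploid germ cells of the testis, and several of them persist in sperm. In mice, TSSK1 and TSSK2 phosphorylate TSKS, a scaffold protein of the spermatid cytoplasm, and TSSK6 is needed for normal chromatin packing and for sperm to fuse with the egg. Many mRNAs of elongating spermatids are made in round spermatids and held back from ribosomes until later, so RNA and footprints of such genes need not move together. MIWI binds piRNAs in meiotic spermatocytes and round spermatids, and germ cells of Miwi-null males are known to stop as round spermatids.

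Of all 16051 genes tested, 20.8% fell in the null testes in RNA and 13.3% in footprints. Of the 7 genes, 5 fell in RNA and in footprints alike, namely Tssk1, Tssk2, Tssk3, Tssk6 and Tsks. Tssk6 lost the most RNA and Tssk3 and Tssk2 lost the most footprints beyond their loss of RNA. Tssk5 rose in RNA, a call that some alternative fits did not keep, and Tssk4 passed in no comparison between the genotypes.

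Total gene counts ran from 11130954 to 12721796 in the null RNA libraries and from 13874632 to 15592804 in the WT RNA libraries. They were 11662659 and 28334618 in null RPF replicates 1 and 2, and 28054417 and 17735638 in WT RPF replicates 1 and 2. The shallower footprint library was thus replicate 1 in null testes and replicate 2 in WT testes. A single count stood for 0.0353 to 0.0898 CPM, the count scaled to library size. Piwil1 had 46 and 26 counts in null RNA against 8215 and 7165 in WT RNA, and 37 and 94 in null RPF against 14206 and 6868 in WT RPF, as the genotype labels call for. Counts of the null RNA pair differed by little more than sampling noise, with a chi-square per degree of freedom of 1.18 (p = 7.03e-49), so their SD may hold little spread between animals. The other pairs differed more, with 3.85 for WT RNA, 22.4 for null RPF and 44.1 for WT RPF, and the fit shares its dispersion over both assays. All markers listed for spermatogonia, meiotic prophase, spermatids, Sertoli and Leydig cells had counts, as whole testis calls for.

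The positions below follow the RefSeq annotation of GRCm38.p6, the build of the files. Tssk1 (ENSMUSG00000041566.3, 16:17894203-17895653) and Tssk2 (ENSMUSG00000045521.7, 16:17898637-17900024) lie side by side on the plus strand of chromosome 16, with 2983 bases between them. Tssk3 (ENSMUSG00000000411.7) lies on chromosome 4 from 129489008 to 129491730, Tssk4 (ENSMUSG00000007591.15) on chromosome 14 from 55643651 to 55652539, and Tssk5 (ENSMUSG00000060794.8) on chromosome 15 from 76371958 to 76375191. Tssk6 (ENSMUSG00000047654.6) lies on chromosome 8 from 69902184 to 69903518 and Tsks (ENSMUSG00000059891.14) on chromosome 7 from 44929472 to 44958041. Counts cover coding sequence, 1095 bases in Tssk1, 1074 in Tssk2, 804 in Tssk3, 1014 in Tssk4, 1116 in Tssk5, 819 in Tssk6 and 1575 in Tsks. Tssk1, Tssk2, Tssk3 and Tssk6 have 1 transcript each in the tables. Tssk1 and Tssk2 are close paralogues, and how fragments that match both were treated is not given in the sources used here, so their separate counts are uncertain to that extent.

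The windows around the starts of these genes are shown as a description, and their part in the changes between genotypes was not tested. RefSeq promoter windows, from 250 bases before to 50 after the gene start, were found for 6 of the 7 genes, all but Tssk5 (build GRCm38.p6, 5′ to 3′ on the gene's strand). Capitals mark TGACNTCA on either strand, which is the palindrome of the cAMP response element with any base in place of its central G. This motif was chosen after the windows had been read. The windows of Tssk3, Tssk4 and Tsks belong to starts inside the gene's annotated span.
Tssk1 (chr16:17893953-17894252, plus strand): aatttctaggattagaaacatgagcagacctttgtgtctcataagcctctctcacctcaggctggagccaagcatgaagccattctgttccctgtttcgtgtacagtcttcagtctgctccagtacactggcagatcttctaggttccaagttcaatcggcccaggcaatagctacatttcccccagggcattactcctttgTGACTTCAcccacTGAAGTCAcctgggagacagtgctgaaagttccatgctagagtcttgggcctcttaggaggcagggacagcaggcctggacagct
Tssk2 (chr16:17898387-17898686, plus strand): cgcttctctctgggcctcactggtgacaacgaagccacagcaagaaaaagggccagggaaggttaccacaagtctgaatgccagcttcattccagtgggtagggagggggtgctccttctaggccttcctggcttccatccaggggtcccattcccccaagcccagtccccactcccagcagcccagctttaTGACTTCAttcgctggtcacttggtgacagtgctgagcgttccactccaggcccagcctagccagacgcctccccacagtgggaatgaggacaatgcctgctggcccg
Tssk6 (chr8:69901934-69902233, plus strand): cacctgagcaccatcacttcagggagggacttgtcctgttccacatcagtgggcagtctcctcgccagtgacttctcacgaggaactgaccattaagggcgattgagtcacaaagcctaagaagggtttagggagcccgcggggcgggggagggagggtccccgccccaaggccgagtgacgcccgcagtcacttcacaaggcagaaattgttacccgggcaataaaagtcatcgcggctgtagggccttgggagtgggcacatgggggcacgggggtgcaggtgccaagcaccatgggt
Tssk3 (chr4:129490721-129491020, minus strand): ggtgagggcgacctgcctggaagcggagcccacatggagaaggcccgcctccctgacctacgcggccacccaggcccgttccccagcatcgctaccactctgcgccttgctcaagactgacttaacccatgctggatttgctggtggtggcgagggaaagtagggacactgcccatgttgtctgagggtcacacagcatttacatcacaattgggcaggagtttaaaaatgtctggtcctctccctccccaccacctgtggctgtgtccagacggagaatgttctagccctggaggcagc
Tsks (chr7:44942990-44943289, plus strand): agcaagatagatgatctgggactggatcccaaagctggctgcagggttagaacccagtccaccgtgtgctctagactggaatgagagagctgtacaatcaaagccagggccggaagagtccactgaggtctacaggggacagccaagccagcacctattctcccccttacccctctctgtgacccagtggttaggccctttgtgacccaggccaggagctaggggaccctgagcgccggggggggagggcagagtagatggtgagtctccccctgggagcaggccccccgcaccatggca
Tssk4 (chr14:55649934-55650233, plus strand): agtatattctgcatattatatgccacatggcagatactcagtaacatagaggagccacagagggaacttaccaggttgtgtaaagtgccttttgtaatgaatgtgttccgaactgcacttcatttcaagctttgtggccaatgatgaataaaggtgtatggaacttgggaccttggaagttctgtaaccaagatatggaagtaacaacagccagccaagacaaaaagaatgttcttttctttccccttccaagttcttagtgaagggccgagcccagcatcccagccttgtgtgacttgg

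TGACNTCA stood at -48 and, on the other strand, at -35 in the Tssk1 window, and at -58 in the Tssk2 window, counting from the start used for the window. It had no match in the windows of Tssk3, Tssk4, Tssk6 and Tsks. Of 32851 RefSeq windows of the same length, 8.83% held it. The shorter TGACG, which the palindrome itself can contain, was found in the Tssk6 window at -73 and in 20.8% of all windows. TATAAA, found in 13.6% of all windows, had no match in the 6 windows, and CCAAT, found in 37.4%, matched at -41 in Tssk3 on the other strand and at -113 in Tssk4. Each motif was searched on both strands, and a match describes letters only.

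The windows of Tssk1 and Tssk2 resembled each other just upstream of the gene start. A local alignment of the pair covered 52 columns, of which 41 were identical (78.8%). It ran from -53 to -2 in Tssk1 and from -63 to -15 in Tssk2, and the capitals below mark identical bases, with gaps removed.
Tssk1 (chromosome 16): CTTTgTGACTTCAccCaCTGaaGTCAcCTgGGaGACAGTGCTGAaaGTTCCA
Tssk2 (chromosome 16): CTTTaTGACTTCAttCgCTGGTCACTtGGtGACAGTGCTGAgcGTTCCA

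The RNA comparison asked which transcripts differed in abundance without MIWI. Among the 7 genes 5 fell and 1 rose, against 20.8% of the 16051 genes tested that fell and 16.5% that rose (edgeR's quasi-likelihood test, Benjamini-Hochberg adjusted p under 0.05). Scaling the libraries without TMM turned the share of higher genes among the RNA calls to 55.1%, against 44.1% with it, but left these 6 calls in place. The median log2 change of the 7 genes was -1.30, beside -0.07 over all genes tested. Changes are relative to the other genes of a library, and in whole testis fewer cells of a type and less RNA per cell cannot be told apart.

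Tssk6 showed the largest fall of the family in RNA. Its deposited level, in fragments per kilobase of coding sequence scaled to library size (FPKM), was 42.1 and 42.6 in null RNA against 481 and 418 in WT RNA. The null libraries lay far below the WT ones, with no overlap. On the log2 scale its RNA fell by 3.48 ± 0.11 (SE; 11.1-fold, adjusted p = 7.54e-07), and 68 of the tested genes had a lower log2 change. The RefSeq span of Ndufa13, a subunit gene of respiratory complex I on the opposite strand, overlaps that of Tssk6 by 375 bases. Ndufa13 fell by 2.13 ± 0.13 in RNA (adjusted p = 1.26e-05), while its footprints did not pass (0.01 ± 0.12, adjusted p = 0.952). Whether counting used strand is not given in the sources used here, so any counted reads of the overlap cannot be told apart. Whether the overlap reaches counted coding sequence was not checked.

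The neighbours Tssk2 and Tssk1 fell to different degrees. Tssk2 had 112 and 111 FPKM in null RNA against 432 and 405 FPKM in WT RNA. The groups did not overlap, and Tssk2 fell by 1.98 ± 0.10 on the log2 scale (3.94-fold, adjusted p = 4.65e-06). Tssk1 kept more of its RNA, with 190 and 188 FPKM in null testes against 336 and 335 FPKM in WT testes. It fell by 0.90 ± 0.09 (1.86-fold, adjusted p = 0.000117). Within a library the Tssk2 level was 0.588 times the Tssk1 level in both null RNA libraries, against 1.29 and 1.21 times in WT RNA, so the order of the pair was reversed. This ratio was not tested.

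Tssk3, whose kinase is needed for male fertility in mice, had 55.5 and 53.8 FPKM in null RNA against 128 and 128 FPKM in WT RNA. The values within each genotype lay close together, and Tssk3 fell by 1.30 ± 0.14 on the log2 scale (2.46-fold, adjusted p = 0.000202). Fam229a overlaps the Tssk3 span by 541 bases on the opposite strand and fell by 1.5 ± 0.17 in RNA (adjusted p = 0.000292). That overlap lies upstream of the start used for the Tssk3 window. Whether it reaches counted coding sequence was not checked either, so whether the limit on strand applies here is not known. Tsks, the substrate of TSSK1 and TSSK2, had 114 and 110 FPKM in null RNA against 280 and 266 FPKM in WT RNA. Its groups were apart too, and it fell by 1.35 ± 0.11 (2.55-fold, adjusted p = 4.79e-05). The 19 bases that the Tsks span shares with Ap2a1 are a small part of the gene.

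Tssk4 and Tssk5 did not follow the others. Tssk4, which phosphorylates the outer dense fibre protein ODF2 in mice, had 75.2 and 72.2 FPKM in null RNA against 73.9 and 69.9 FPKM in WT RNA. These ranges overlapped, and the log2 change was -0.03 ± 0.15 (adjusted p = 0.895), with a sign that varied over the alternatives tried (-0.07 to 0.07). Tm9sf1 overlaps the Tssk4 span by 156 bases and did not pass in RNA either (-0.06 ± 0.14, adjusted p = 0.771). Tssk5 was the least abundant of the family in RNA, with 14.0 and 14.7 FPKM in null testes against 10.1 and 8.00 FPKM in WT testes. It rose by 0.60 ± 0.16 (1.51-fold, adjusted p = 0.0169). That call was lost without null RNA replicate 1 (adjusted p = 0.0702), null RNA replicate 2 (0.0977) or WT RNA replicate 2 (0.117), where the change was 0.64, 0.56 and 0.44.

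**Figure D1:**
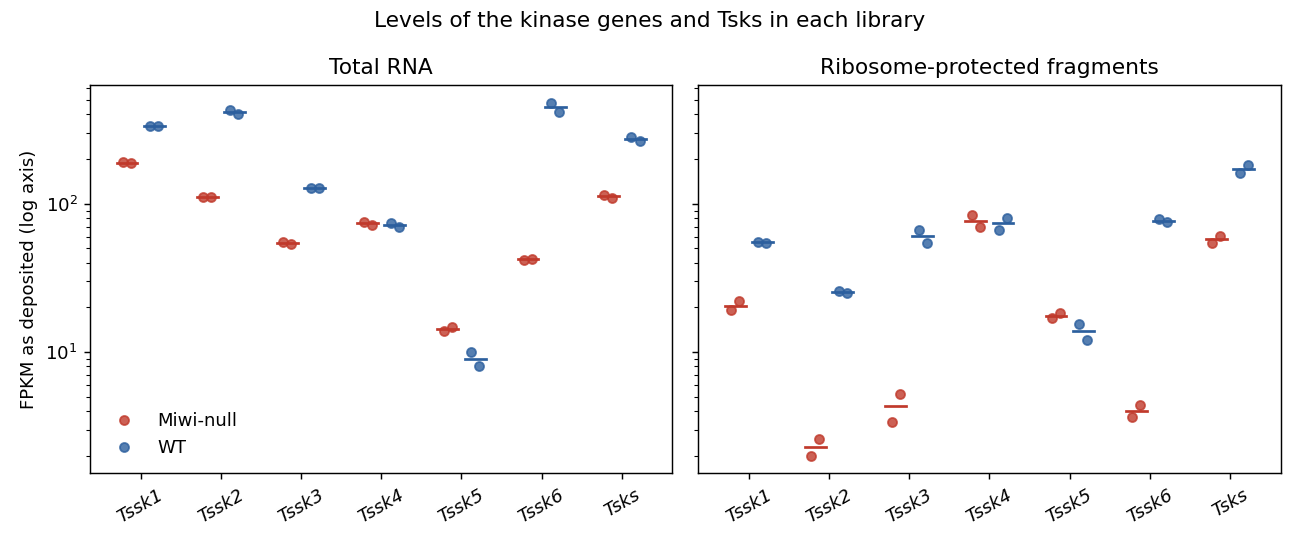
FPKM as deposited (log axis) of each gene in total RNA and in RPF, with Miwi-null libraries in red and WT libraries in blue; points are the 2 libraries of a group, replicate 1 on the left, and bars their mean. Tssk1, Tssk2, Tssk3, Tssk6 and Tsks lie lower in null testes in both assays, with Tssk6 RNA at 42.1 and 42.6 against 481 and 418, whereas Tssk4 overlaps between the genotypes.

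The order of RNA levels within the family differed between the genotypes. In null testes Tssk1 stood highest at 189 ± 1.54 FPKM (mean ± SD, n = 2), followed by Tsks at 112 ± 3.12 and Tssk2 at 111 ± 0.909, which overlapped. Tssk4 (73.7 ± 2.16), Tssk3 (54.6 ± 1.19), Tssk6 (42.3 ± 0.337) and Tssk5 (14.3 ± 0.526) came next, each apart from its neighbour. In WT testes Tssk6 stood highest at 449 ± 44.8 FPKM and overlapped with Tssk2 at 418 ± 19.3. Below them lay Tssk1 at 336 ± 0.540, Tsks at 273 ± 10.1, Tssk3 at 128 ± 0.0808, Tssk4 at 71.9 ± 2.83 and Tssk5 at 9.03 ± 1.46, all apart. Tssk6 thus lay next to lowest in null RNA and on top, overlapping with Tssk2, in WT RNA.

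The footprint comparison asked which coding sequences held more or fewer ribosomes in null testes. Again 5 of the 7 genes fell and 0 rose, against 13.3% of the genes tested that fell and 12% that rose. At an unadjusted p under 0.05 edgeR's test gave 1 higher gene, Tssk5, and DESeq2 and limma voom gave 0 after adjustment. Their median log2 change was -1.53, beside -0.0046 over all genes tested. The 5 that fell were those that fell in RNA. With edgeR fitted to the footprint libraries alone, all 5 still passed but at larger adjusted p. These ran from 0.000365 for Tssk6 to 0.00407 for Tsks, against 2.08e-07 and 1.92e-05 in the main fit.

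Footprints of Tssk6, Tssk3 and Tssk2 were nearly lost. Tssk6 had 3.64 and 4.42 FPKM in null RPF against 78.5 and 75.0 FPKM in WT RPF, from 36 and 106 counts against 1866 and 1131. It fell by 4.18 ± 0.13 on the log2 scale (18.2-fold, adjusted p = 2.08e-07). Tssk3 had 3.40 and 5.23 FPKM in null RPF against 66.9 and 54.3 FPKM in WT RPF, from 33 and 123 counts against 1560 and 804. The spread between its replicates was wide but far smaller than the gap between genotypes, and it fell by 3.71 ± 0.17 (13.1-fold, adjusted p = 1.37e-06). Tssk2 had 2.0 and 2.61 FPKM in null RPF against 25.8 and 25.2 FPKM in WT RPF, from 26 and 82 counts against 803 and 498. It fell by 3.38 ± 0.12 (10.4-fold, adjusted p = 5.41e-07), and the null libraries were again apart from the WT ones.

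Tssk1 and Tsks retained more footprints. Tssk1 had 19.2 and 22 FPKM in null RPF against 55.6 and 54.8 FPKM in WT RPF, and it fell by 1.38 ± 0.09 on the log2 scale (2.60-fold, adjusted p = 1.14e-05). Within a library the Tssk2 footprint level was 0.104 and 0.119 times that of Tssk1 in null RPF, against 0.463 and 0.459 times in WT RPF. Tsks had 54.3 and 60.9 FPKM in null RPF against 160 and 182 FPKM in WT RPF. The groups of both genes were apart, and Tsks fell by 1.53 ± 0.11 (2.89-fold, adjusted p = 1.92e-05).

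Tssk4 footprints overlapped between the genotypes, at 83.7 and 69.9 FPKM in null RPF against 66.7 and 80.7 FPKM in WT RPF. The higher value in each genotype was that of the shallower library, and the part of depth in this spread was not tested. The log2 change was 0.10 ± 0.15 (adjusted p = 0.663). Tssk5 had 16.9 and 18.2 FPKM in null RPF against 15.5 and 12.1 FPKM in WT RPF. The libraries were apart but the change of 0.39 ± 0.15 did not pass (adjusted p = 0.0873), although it did without WT RPF replicate 1 (0.58, adjusted p = 0.0312).

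In null testes Tssk4 held the highest footprint level of the family, at 76.8 ± 9.79 FPKM (SD, n = 2), then Tsks at 57.6 ± 4.68, Tssk1 at 20.6 ± 1.95 and Tssk5 at 17.6 ± 0.920, all apart. Tssk3 (4.31 ± 1.29) and Tssk6 (4.03 ± 0.553) overlapped, and Tssk2 (2.31 ± 0.427) lay below them. In WT testes Tsks led with 171 ± 15.5 FPKM. Tssk6 (76.7 ± 2.5), Tssk4 (73.7 ± 9.88), Tssk3 (60.6 ± 8.89) and Tssk1 (55.2 ± 0.602) followed, and each overlapped with the next. Tssk2 (25.5 ± 0.417) and Tssk5 (13.8 ± 2.45) were lowest in WT RPF and apart from the rest.

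Translational efficiency (TE) sets footprints against RNA, and its change between genotypes was tested as the interaction of genotype and assay. In whole testis a TE change within cells and a change in the mix of cells cannot be told apart. TE fell for 4 of the 7 genes and rose for 0, against 7.56% of the genes tested that fell and 7.33% that rose. No member was higher in TE at an unadjusted p under 0.05 either, and none was with DESeq2 or limma voom. The median log2 change of the 7 was -0.48, beside 0.04 over all genes. The share of higher genes among all TE calls was 49.2%, but 29.2% without TMM and 39% with TMM within each assay.

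Tssk3 and Tssk2 had the largest TE changes. The deposited TE, RPF FPKM over RNA FPKM, of Tssk3 was 0.0612 and 0.0972 in null replicates 1 and 2 against 0.522 and 0.424 in the WT ones. Its log2 change was -2.41 ± 0.21 (adjusted p = 0.00043), and 186 of the tested genes had a lower one. Tssk2 had a TE of 0.0179 and 0.0236 in null testes against 0.0596 and 0.0622 in WT testes. The null values lay below the WT ones in both replicates, and the log2 change was -1.40 ± 0.16 (adjusted p = 0.00145). Both calls held in each of the 18 alternatives tried for them, with adjusted p up to 0.0268 for Tssk3 and up to 0.0437 for Tssk2.

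The TE calls of Tssk6 and Tssk1 were weaker. Tssk6 had a TE of 0.0865 and 0.104 in null testes against 0.163 and 0.179 in WT testes, a log2 change of -0.71 ± 0.16 (adjusted p = 0.023). Tssk1 had 0.101 and 0.117 in null testes against 0.166 and 0.163 in WT testes, a log2 change of -0.48 ± 0.12 (adjusted p = 0.0344). The groups of each gene were apart. For Tssk6 the call was lost without null RNA replicate 1 (adjusted p = 0.102), null RNA replicate 2 (0.108), WT RNA replicate 1 (0.0526), WT RNA replicate 2 (0.0818) or null RPF replicate 1 (0.0612), with changes from -0.81 to -0.61. The Tssk1 call was lost without the same libraries, at 0.163, 0.149, 0.132, 0.112 and 0.0865, with changes from -0.49 to -0.43. A replicate block also ended both calls (adjusted p = 0.0595 for Tssk6 and 0.0812 for Tssk1), as did a replicate block within assay (0.149 and 0.209), and limma voom ended that of Tssk6 (0.0784). Both directions were the same in all 18 alternatives.

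The remaining genes did not pass in TE. Tsks had a TE of 0.475 and 0.554 in null testes against 0.573 and 0.687 in WT testes, a log2 change of -0.18 ± 0.15 (adjusted p = 0.459). Tssk5 had 1.21 and 1.24 in null testes against 1.54 and 1.51 in WT testes, a log2 change of -0.21 ± 0.21 (adjusted p = 0.567). Tssk4 had 1.11 and 0.968 in null testes against 0.903 and 1.15 in WT testes, so its groups overlapped, and its log2 change was 0.13 ± 0.21 (adjusted p = 0.729). Whether the TE change of Tssk3 or Tssk2 differed from that of Tsks was not tested.

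**Figure D2:**
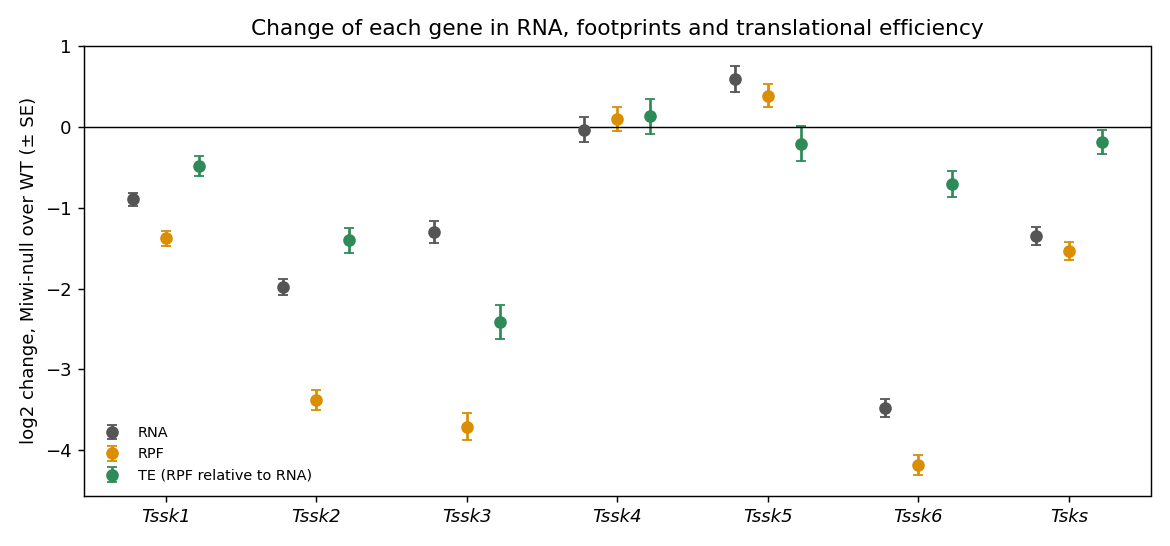
Log2 change, Miwi-null over WT, of each gene in RNA (grey), RPF (orange) and TE (green) from the edgeR fit; bars are SE. Tssk6 has the lowest RNA change (-3.48), Tssk3 the lowest TE change (-2.41), and Tssk4 lies at 0 within its SE in all 3.

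In the authors' deposited table of merged replicates, the log2 TE change was -2.5 for Tssk3, -1.48 for Tssk2, -0.79 for Tssk6, -0.56 for Tssk1, -0.37 for Tsks, -0.33 for Tssk5 and 0.02 for Tssk4. The authors' deposited table marks the first 6 as Down and Tssk4 as unchanged. Of these, Tsks and Tssk5 did not pass in the edgeR fit above. The deposited log2 values follow a TE fold change given per gene. For Tsks it was 0.774, against 0.850 for the transcript used here. For Tssk4 the authors' deposited tables of single replicates differed in sign, with a log2 change of 0.29 in replicate 1 and -0.22 in replicate 2.

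**Figure D3:**
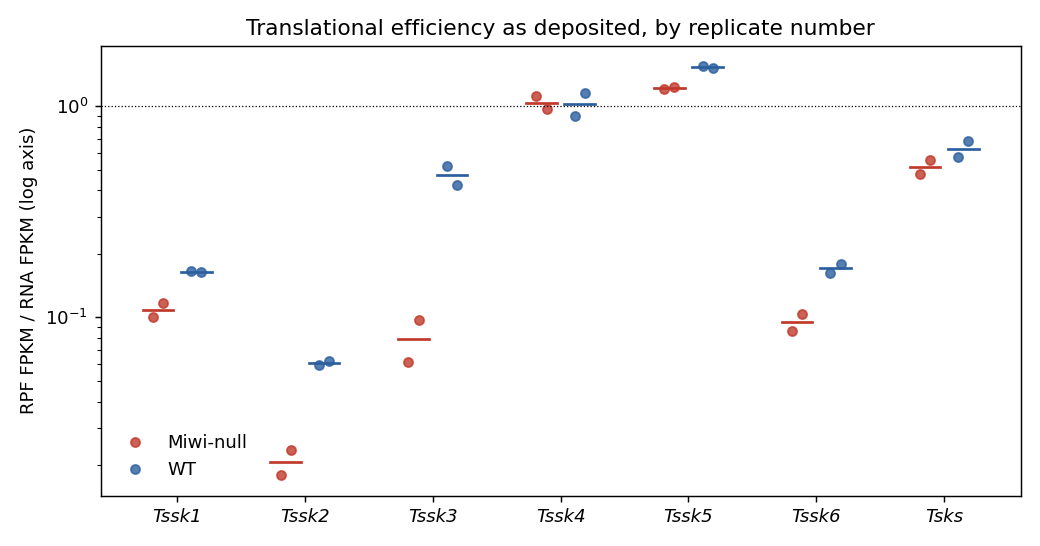
Deposited TE (RPF FPKM over RNA FPKM, log axis) of each gene; points are replicates 1 (left) and 2 (right), bars their mean, red Miwi-null and blue WT. Tssk2 is lowest in both genotypes, at 0.0179 and 0.0236 against 0.0596 and 0.0622, and Tssk4 and Tssk5 lie near or above 1.

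Within each genotype the family spanned a wide range of TE. In null testes the mean TE was 1.22 ± 0.0193 for Tssk5 (SD, n = 2), 1.04 ± 0.102 for Tssk4 and 0.515 ± 0.0561 for Tsks. Tssk1 (0.109 ± 0.0112), Tssk6 (0.0952 ± 0.0123) and Tssk3 (0.0792 ± 0.0254) followed, each overlapping with the next, and Tssk2 was lowest at 0.0208 ± 0.0040. In WT testes it was 1.53 ± 0.0248 for Tssk5, 1.03 ± 0.178 for Tssk4, 0.630 ± 0.0802 for Tsks and 0.473 ± 0.0691 for Tssk3. Tssk6 (0.171 ± 0.0115) and Tssk1 (0.164 ± 0.0015) overlapped, and Tssk2 was lowest at 0.0609 ± 0.0018. Tssk3 thus stood near Tsks in WT testes and near Tssk1 and Tssk6 in null testes.

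The fit of footprints against RNA within a genotype placed them among all genes. In null testes 5 of the 7 genes had a lower share of footprints than of RNA, against 37.1% of all genes lower and 38.4% higher. In WT testes 5 did too, against 36.4% lower and 37.7% higher. They were Tssk1, Tssk2, Tssk3, Tssk6 and Tsks in both. The log2 difference of Tssk2 was -5.76 ± 0.13 in null testes (adjusted p = 2.36e-08) and -4.36 ± 0.11 in WT testes (adjusted p = 5.72e-08). Of the genes tested, 147 in null testes and 200 in WT testes had a lower difference. Tssk1 and Tssk6 stood at -3.40 ± 0.10 and -3.58 ± 0.13 in null testes, and at -2.92 ± 0.09 and -2.87 ± 0.11 in WT testes. Tssk3 stood at -3.81 ± 0.17 in null testes and at -1.40 ± 0.14 in WT testes. Tssk4 and Tssk5 did not differ from 0 beyond the threshold in either genotype, with adjusted p from 0.112 to 0.613, although both passed in WT testes without WT RPF replicate 2 (Tssk4 at -0.46, adjusted p = 0.014, and Tssk5 at 0.42, adjusted p = 0.0347).

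**Figure D4:**
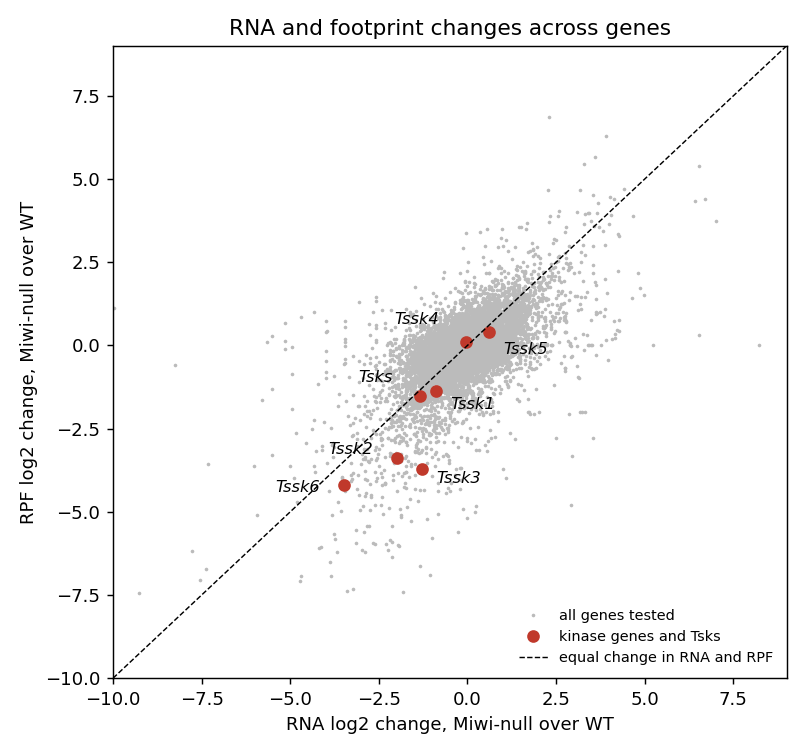
RPF log2 change against RNA log2 change, Miwi-null over WT, for the 16051 genes tested (grey) and the 7 genes (red); the dashed line marks equal change. Tssk3 (-1.30, -3.71) and Tssk2 (-1.98, -3.38) lie farthest below the line, Tsks (-1.35, -1.53) close to it, and Tssk4 and Tssk5 in the bulk of genes.

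Tssk4 and Tsks have several coding transcripts in the tables, which share fragments and so are not independent. The 7 Tssk4 transcripts had 34.5 to 75.2 FPKM in null RNA and 35.1 to 73.9 FPKM in WT RNA. The log2 ratio of deposited TE, null over WT, lay between 0.09 and 0.44 for the 7 in replicate 1 and between -0.35 and -0.09 in replicate 2, so the sign followed the replicate and not the transcript. The 4 Tsks transcripts had 34.1 to 114 FPKM in null RNA against 93.1 to 280 FPKM in WT RNA. Their log2 TE ratio lay between -0.96 and -0.27 in replicate 1 and between -0.37 and -0.25 in replicate 2, below 0 for each.

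Genes whose products act with the kinases were set beside them. Of 15 partner and regulator genes, all tested, 8 fell and 2 rose in RNA, against 20.8% of all genes that fell and 16.5% that rose, with a median log2 change of -0.44. Hspa1l, a spermatid HSP70 chaperone, fell by 2.33 ± 0.11 (adjusted p = 4.16e-06). H2afx, whose histone is phosphorylated at DNA breaks, had a log2 change of -1.34 ± 0.19, and Tsacc, the co-chaperone that activates TSSK6, -1.30 ± 0.18. Ppp1r11, an inhibitor of protein phosphatase 1, had -1.23 ± 0.17. In footprints 4 of the 15 fell and 2 rose (median -0.29), against 13.3% and 12% of all genes, led by Hspa1l at -4.14 ± 0.13, Pdpk1 at -1.64 ± 0.16, Odf2 at -0.90 ± 0.15 and Ppp1r11 at -0.90 ± 0.16. In TE 1 fell and 4 rose (median -0.07), against 7.56% and 7.33% of all genes, with Hspa1l at -1.81 ± 0.16 and, upward, H2afx at 1.13 ± 0.27, Tsacc at 1.0 ± 0.26 and Hsp90ab1 at 0.90 ± 0.13. The TE changes of Tsacc (adjusted p = 0.0382 in the edgeR fit) and of its partner Tssk6 had opposite signs. Tsacc footprints did not pass (-0.30 ± 0.19, adjusted p = 0.294), and the difference between these 2 genes was not tested.

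Of 20 other protein kinases of male germ cells, all tested, 7 fell and 3 rose in RNA (median -0.08), against the 20.8% and 16.5% of all genes. In footprints 5 fell and 3 rose (median 0.08), against 13.3% and 12%, and in TE 1 fell and 3 rose (median 0.04), against 7.56% and 7.33%. Several of these counts, such as the 3 higher in RNA and the 1 lower in TE, lie near the shares over all genes. In RNA, Csnk1g2 had a log2 change of -1.90 ± 0.16, Cdk16 -1.30 ± 0.11, Stk35 -1.23 ± 0.09 and the spindle checkpoint kinase gene Ttk 1.21 ± 0.10. In footprints, Camk4 had -1.40 ± 0.13, Cdk16 -1.37 ± 0.11, Dyrk4 -0.93 ± 0.14 and Stk35 -0.90 ± 0.09. In TE, Csnk1g2 had 1.22 ± 0.22, Ttk -0.65 ± 0.14, Plk1 0.62 ± 0.15 and Mapk15 0.55 ± 0.15. The lowest footprint change among them lay above the footprint changes of Tssk2, Tssk3 and Tssk6.

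Genes of later and earlier germ cells were set beside the kinases, and their part in the changes above was not tested. All 5 sperm DNA packaging genes fell in RNA and in footprints, against 20.8% and 13.3% of all genes. They are the transition protein and protamine genes of elongating spermatids. Their summed level was 533 to 536 CPM in null RNA against 11212 to 11316 CPM in WT RNA, and 58.5 to 60.1 CPM in null RPF against 5429 to 5520 CPM in WT RPF. The summed level of the 7 kinase and substrate genes was 802 to 821 CPM in null RNA against 2212 to 2342 CPM in WT RNA, and 225 to 235 CPM in null RPF against 536 to 600 CPM in WT RPF. Of 10 acrosome and round spermatid genes, 3 fell, 1 rose and 6 were not called in RNA, against 20.8% of all genes that fell and 16.5% that rose. Their median log2 RNA change was 0.08, beside -0.07 over all genes. Their summed level was nonetheless lower, at 2894 to 2899 CPM in null RNA against 3727 to 3903 CPM in WT RNA. In footprints 6 of the 10 fell and 1 rose (median -0.84), against 13.3% and 12% of all genes. In TE 4 of the 5 packaging genes fell (median log2 change -2.21). So did 3 of the 10 acrosome genes (median -0.63), against 7.56% of all genes. Lower TE was thus also seen in other spermatid genes. It was not confined to them, as 3 of 8 meiotic prophase genes fell and 0 rose in TE (median -0.55). No listed marker was at 0 in all libraries.

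Markers of other cells were counted too. Of all genes, 20.8% fell and 16.5% rose in RNA, 13.3% and 12% in footprints, and 7.56% and 7.33% in TE. Several counts below lie near these shares, such as the 1 spermatogonial and the 1 Sertoli marker lower in footprints. Of 8 meiotic prophase genes 5 rose in RNA, with a summed level of 4104 to 4140 CPM in null RNA against 2929 to 3169 CPM in WT RNA. In footprints 2 of them rose, and their sum was 13396 to 13420 CPM in null RPF against 14148 to 14332 CPM in WT RPF, while 3 fell in TE (median -0.55). Of 8 spermatogonial markers 4 fell in RNA, with a sum of 130 to 131 CPM in null RNA against 183 to 184 CPM in WT RNA. In footprints 1 of them fell, and their sum was 391.7 to 457 CPM in null RPF against 453 to 545 CPM in WT RPF. Of 8 Sertoli cell markers 6 fell in RNA, with a sum of 1180 to 1189 CPM in null RNA against 1639 to 1681 CPM in WT RNA. In footprints 1 of them fell, and the sums overlapped, at 4389 to 4447 CPM in null RPF against 4176 to 4484 CPM in WT RPF, while 4 rose in TE. Leydig cell markers, of steroid-producing cells, went the other way, with 4 of 8 higher and 1 lower in RNA. Their sum was 2322 to 2333 CPM in null RNA against 1227 to 1241 CPM in WT RNA. In footprints 5 rose, and their sum was 8083 to 9016 CPM in null RPF against 2488 to 2591 CPM in WT RPF.

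The profiles most like each member were sought by Pearson's r of log2 CPM over the 8 libraries, among 10171 genes with a mean CPM of at least 10. These r values describe 8 points that share libraries and fall into 4 groups, and so carry no p. For Tssk3 they were Dnajb8 (r = 0.999) and Dnajc5b (r = 0.999), DnaJ co-chaperone genes whose log2 changes were -2.30 and -1.05 in RNA and -5.98 and -2.89 in footprints. For Tssk2 they were Frat1 (r = 0.998) and 1700013G24Rik (r = 0.998), for Tssk6 Col6a3 (r = 0.999) and Spert (r = 0.999), and for Tsks Tmem56 (r = 0.998) and 1700029H14Rik (r = 0.997). Tssk1 was most like Zfp438 (r = 0.999) and Acsl1 (r = 0.999). Tssk4 (D1Pas1, r = 0.981, and Baz1a, r = 0.978) and Tssk5 (Mmachc, r = 0.975, and Gstz1, r = 0.969) had less close matches. A high r does not mean an equal change: Col6a3 had log2 changes of -1.22 in RNA and -1.44 in footprints, against -3.48 and -4.18 for Tssk6, and Zfp438 had -0.29 and -0.50, against -0.90 and -1.38 for Tssk1. No gene of the family was among the closest pair of another.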

How the data were processed

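The members and gene lists were chosen with earlier results of these data known. Fragment counts per transcript were deposited by the authors as whole numbers without normalization. Per the submitters' processing notes, cutadapt 2.5, Bowtie 1.2.2, STAR 2.5.0a and GRCm38 were used (no role or counter named). The authors deposited FPKM values computed from those counts, and as TE the ratio of RPF to RNA FPKM. The authors also deposited the log2 of the TE ratio per gene. The Length column, a multiple of 3 for 84.7% of transcripts, is a coding length deposited by the authors. The transcript with the highest mean count stood for its gene. Genes passing filterByExpr (minimum count 10, minimum total 15), 16051 with all 7 members, were fitted over the 8 libraries by edgeR 4.0.16 in R 4.3.3 (TMM, robust quasi-likelihood, 4 residual degrees of freedom, dispersion shared by both assays). The fit was tried on simulated data with the same dispersion in every library. That trial cannot show how the fit behaves where footprint pairs vary more than RNA pairs. DESeq2 1.42.0 and limma 3.58.1 served as alternatives, beside other scalings, filters, transcripts, blocks and left-out libraries. All 7 members and Piwil1 were named, and of each list up to 4 called genes with the largest change. Sequences are RefSeq's, aligned with Biopython 1.88.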

Additional observations from a re-analysis of the deposited data

How the results depend on the processing

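The 5 RNA and 5 footprint decreases kept their direction and call in all 19 alternatives, and so did the TE calls of Tssk2 and Tssk3 in all 18 that give TE. Of 644 member values under the alternatives, 618 kept direction and call, 19 lost the call, 7 gained it and 0 turned round after a call. With 1 assay alone, 9041 genes were called in RNA and 1983 in RPF, against 5984 and 4073. Replicate numbers were not shown to pair libraries: the correlation of replicate differences was -0.00406 between the RNA groups and -0.808 between the RPF groups. The RPF differences were thus largely shared between the genotypes, with opposite sign, and the main fit holds no term for this. A replicate block gave 1237 TE calls, against 2390, and 2 members lower in TE. A replicate block within assay gave 3418 calls in RNA, 1871 in RPF and 212 in TE, with 0 members higher in RNA (Tssk5 adjusted p = 0.0694) and 2 lower in TE. The block with crossed RPF numbers, chosen after seeing the data, gave 9102, 8183 and 6539 calls, with 1 member higher in RPF, 1 higher in RPF against RNA in WT, and 6 lower in RPF against RNA in each genotype, where Tssk4 passed (-0.33 in null, adjusted p = 0.000284, and -0.47 in WT, 2.44e-06). Leaving out a library gave 3244 to 7095 calls in RNA, 2939 to 5170 in RPF and 620 to 3636 in TE, where the RNA count was at most 3914 and the TE count at most 976 without any 1 of the 4 RNA libraries, and TE was 3636 without WT RPF replicate 2. It gave 0 to 1 members higher in RNA and in RPF, 2 to 4 lower in TE, and 0 to 1 higher and 5 to 6 lower in RPF against RNA in WT. Without TMM the median TE change of all genes was -0.10, against 0.04. Causes of these shifts were not tested. Null RPF counts of 26 to 36 in replicate 1 limit the precision for Tssk2, Tssk3 and Tssk6.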
